A study of Mus musculus with 16 samples.

Results

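The complement system is a cascade of plasma proteins that marks microbes, dying cells, and immune complexes for removal. Here 9 of its genes were examined in the kidney, C1qa, C1qb, C1qc, C2, C3, C4b, Cfb, C3ar1, and C5ar1, out of 22911 genes that could be named on the arrays. They were chosen by name, as every probe of the array whose transcript belongs to a member gene, which gave 12 of the 56605 probes. All 12 passed the filter on dim probes. Of these genes, 6 have 1 probe each and C3, C4b, and Cfb have 2 each, and a gene is given by its brighter probe unless the other is named.

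The study asked what the loss of STING, a sensor adaptor that drives type I interferon, does to lupus in mice that lack the inhibitory Fc receptor FcγRIIb. Whole kidneys were taken from 16 mice at 6 months of age, and each kidney RNA was read on its own one-color array. There were 4 wild-type mice of the C57BL/6 strain, 4 Fcgr2b-ko mice, called the lupus mouse in the labels, on a mixed 129/C57BL/6 background, 4 double-deficient mice (Fcgr2b-ko, Sting-ko) on the same mixed background, and 4 Sting-ko mice on C57BL/6. All 8 Fcgr2b-deficient mice were on the mixed background and all 8 others on C57BL/6, so strain background and Fcgr2b genotype cannot be told apart here. The Sting-ko allele is Goldenticket, a point mutation that acts as a functional knockout, so it removes the protein and not necessarily the RNA. Only the Fcgr2b deletion is named in the labels of the Fcgr2b-ko group, but the study heads the kidney profiles of these mice with a heterozygous Sting genotype, and this was not settled here. The methods give the wild-type mice as purchased animals.

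As background, the cascade starts in the classical pathway, where C1q, a molecule built from the products of C1qa, C1qb, and C1qc, binds antibody on an immune complex. C1q activates proteases that cleave C4 and C2, whose fragments form an enzyme that cleaves C3. Cfb encodes factor B, which with C3b forms the C3-cleaving enzyme of the alternative pathway and amplifies the reaction. The small fragments C3a and C5a act through the receptors encoded by C3ar1 and C5ar1. C1q is made mainly by macrophages and other mononuclear phagocytes, whereas C3, C4, and factor B are made by the liver and also by kidney tubule cells. C4b encodes the main mouse C4 and has the near-identical neighbor C4a, so that its probes may read both.

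C1qa, C1qb, and C1qc lie next to each other on chromosome 4. C4b, Cfb, and C2 lie in the major histocompatibility complex on chromosome 17, with Cfb and C2 adjacent, and C3 lies elsewhere on chromosome 17. C3ar1 is on chromosome 6 and C5ar1 on chromosome 7. RefSeq promoter sequence of the assembly GRCm38.p6 was held for 5 of the 9 genes, C1qb, C1qc, C3, C3ar1, and C5ar1. The 250 bases before the annotated start are shown for C1qb and C1qc, whose levels moved together most closely with those of C1qa, and for C3, which varied most between the mice of the Fcgr2b-ko group. All 3 genes are on the minus strand, and the sequences read 5′ to 3′ toward the start. C1qb is at chr4:136886201-136886450, C1qc at chr4:136892915-136893164, and C3 at chr17:57228137-57228386. Capitals mark a match to the letters GAGGAA, the core that the myeloid factor PU.1 binds, in C1qb and C1qc, and to TTGCNNAA, a site form of the C/EBP factors, in C3.
C1qb: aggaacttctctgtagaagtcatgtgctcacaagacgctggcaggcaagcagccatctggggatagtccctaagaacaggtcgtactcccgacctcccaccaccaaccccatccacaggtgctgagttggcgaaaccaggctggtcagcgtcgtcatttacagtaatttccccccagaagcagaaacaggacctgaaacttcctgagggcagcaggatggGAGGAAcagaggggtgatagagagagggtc
C1qc: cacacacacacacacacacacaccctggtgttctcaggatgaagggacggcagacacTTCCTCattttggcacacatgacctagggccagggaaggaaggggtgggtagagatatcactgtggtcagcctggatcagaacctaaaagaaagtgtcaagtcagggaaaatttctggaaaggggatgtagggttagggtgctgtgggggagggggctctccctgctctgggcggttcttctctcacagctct
C3: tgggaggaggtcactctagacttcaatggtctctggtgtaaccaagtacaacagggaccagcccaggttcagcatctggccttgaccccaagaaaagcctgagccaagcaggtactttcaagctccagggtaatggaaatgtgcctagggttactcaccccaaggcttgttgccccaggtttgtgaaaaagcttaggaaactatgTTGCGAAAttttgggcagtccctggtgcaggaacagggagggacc

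The letters GAGGAA began 30 bases before the start in C1qb and, on the opposite strand, 193 bases before it in C1qc. They occurred on either strand in 23.3% of the 32851 promoter stretches of the same length. TTGCNNAA began 45 bases before the start in C3 and occurred in 9.56% of all such stretches. Of the remaining letters searched on both strands, TATAAA occurred in C3ar1, 235 bases before the start, and in 12.4% of all stretches. The interferon-stimulated response element (ISRE) and the gamma-activated site (TTCNNNGAA) occurred in 0 of the 5 stretches and in 2.98% and 7.02% of all. Each stretch held at most 1 match, so that none overlapped. These matches are letters in a window and were not tested for binding.

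Signals are log2 values with the 75th percentile of each array set to 0, so that 0 is the level below which 75% of the spots lie and a difference of 1 is 2-fold. Levels of different probes are not comparable. Between 28443 and 35566 probes were well above background on an array, and with 4 arrays per genotype the number of mice limits the precision. The 10 marker genes of kidney tissue were at 4.29, 4.80, 5.11 and 5.21 on average in the wild-type mice and between 4.05 and 5.32 over all arrays. Fcgr2b was at 1.65, 1.37, 1.08 and 0.61 in wild-type replicates 1 to 4, at 0.23, -0.51, -0.45 and -0.31 in the Fcgr2b-ko mice, at -0.58, 0.02, -0.92 and -0.78 in the double-deficient mice, and at 1.01, 0.54, 0.19 and -0.65 in the Sting-ko mice. The 8 Fcgr2b-deficient mice were each lower than the lowest wild-type mouse, and Sting-ko replicates 3 and 4 fell in their range. Whether the probe lies in the deleted part of the gene is not given in the sources used here. Sting1 RNA was measured on all 16 arrays and its groups overlapped.

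The mice were not all alike within a genotype. The labels give no sex, but 3 Y-linked transcripts were well above background together in 6 mice, wild-type replicates 1 and 2, Fcgr2b-ko replicate 3, double-deficient replicates 2 and 4, and Sting-ko replicate 3, and none of the 3 was in the other 10 mice. Wild-type replicate 1 and Fcgr2b-ko replicate 1 were highest in 8 fat cell genes, at 1.88 and 1.33 on average, while Fcgr2b-ko replicate 4 was at -1.98. The 16 arrays came from 2 slides. The wild-type and Sting-ko groups were split evenly, 3 of the 4 Fcgr2b-ko mice were on slide 1, and 3 of the 4 double-deficient mice were on slide 2. Some mice share the first number of their animal label, wild-type replicates 3 and 4, Fcgr2b-ko replicate 3 with double-deficient replicate 4, and Fcgr2b-ko replicate 4 with double-deficient replicate 3. What this number marks is not given in the sources used here. With it as a random block the estimated correlation between mice of a number was 0.825, whereas the tests here treat mice as independent.

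The means of the 3 C1q chains in the Fcgr2b-ko kidneys were 4.52-fold to 4.83-fold above wild-type, and those of C3 and C4b 3.0-fold and 2.39-fold. The receptors C3ar1 and C5ar1 were also above wild-type, by log2 differences of 2.10 and 2.48, but by 0.82 and 1.03 with the normexp background correction. They were well above background on 2 and 1 of the 4 wild-type arrays. C2 and Cfb were at 1.07-fold above and 1.24-fold below wild-type. With limma over all 35629 tested probes, 0 of the 9 genes were called, where a call needs both an adjusted p below 0.05 and at least a 2-fold change, against a background of 0.0449% of the tested probes. At an unadjusted p under 0.05, 6 of the 9 were higher in the Fcgr2b-ko mice, C1qa, C1qb, C1qc, C4b, C3ar1, and C5ar1, where 2.61% of the tested probes were, and 0 were lower, as 0.688% of the tested probes were. Of the 9, 7 were at least 2-fold higher, as were 4.43% of the tested probes. The 9 genes were chosen with earlier results of these data known, and the C1q chains varied together. These counts are therefore a description and not a count of independent observations. The median log2 change of the 9 genes was 2.10 (with normexp 1.24), beside -0.04 over all tested probes. In bulk tissue, more cells of a type and more RNA per cell cannot be told apart.

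**Figure D1:**
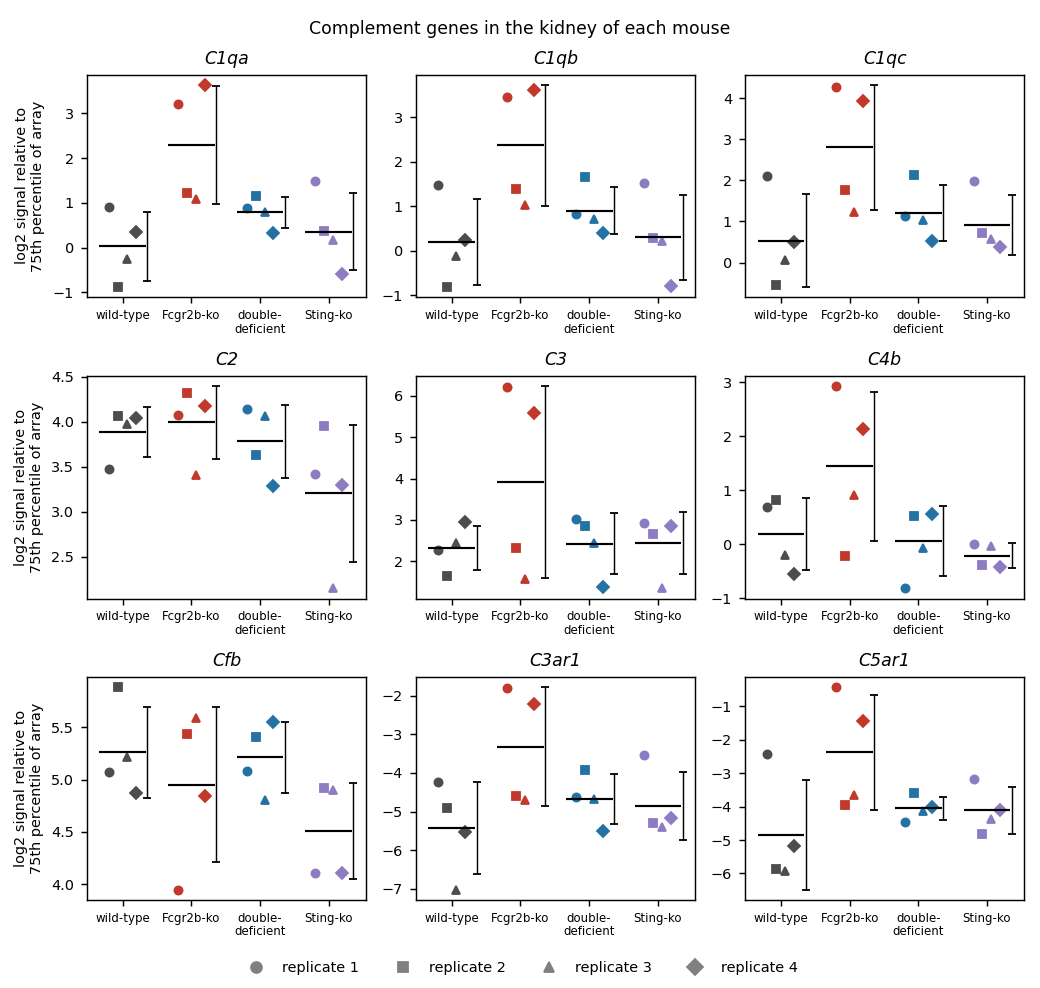
Signal of each of the 9 genes in each mouse by genotype, as log2 with the 75th percentile of each array at 0. The marker shape is the replicate number, the horizontal line is the mean of the 4 mice and the bar beside it is 1 SD on either side. In 7 of the 9 panels Fcgr2b-ko replicates 1 and 4 (circle and diamond) stand above the rest of their group, and in the panels of C2 and Cfb they do not.

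The C1q chains form the molecule that recognizes antibody at the start of the classical pathway. C1qa was at 0.90, -0.88, -0.25 and 0.35 in wild-type replicates 1 to 4 and at 3.21, 1.22, 1.09 and 3.64 in the Fcgr2b-ko mice. It was at 0.89, 1.15, 0.80 and 0.33 in the double-deficient mice and at 1.48, 0.36, 0.17 and -0.58 in the Sting-ko mice. All 4 Fcgr2b-ko mice lay above all 4 wild-type mice, with replicates 2 and 3 only just above wild-type replicate 1, and the other groups overlapped. Groups that do not overlap in this direction were seen in 0.615% of the tested probes. The log2 change from wild-type to Fcgr2b-ko was 2.26 (SE 0.58, 95% interval 1.02 to 3.5), which did not pass adjustment over all probes (adjusted p = 0.577 from limma, unadjusted p = 0.00145). C1qa was the only member at the smallest exact p that the two-tailed Mann-Whitney test named in the methods allows with 4 mice against 4, 0.0286 without adjustment.

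C1qb was at 1.48, -0.81, -0.11 and 0.24 in the wild-type mice, at 3.47, 1.39, 1.03 and 3.62 in the Fcgr2b-ko mice, at 0.84, 1.65, 0.73 and 0.40 in the double-deficient mice, and at 1.53, 0.28, 0.22 and -0.80 in the Sting-ko mice. C1qc was at 2.10, -0.55, 0.07 and 0.51 in the wild-type mice, at 4.29, 1.77, 1.24 and 3.93 in the Fcgr2b-ko mice, at 1.14, 2.14, 1.02 and 0.52 in the double-deficient mice, and at 1.99, 0.71, 0.57 and 0.39 in the Sting-ko mice. For both genes wild-type replicate 1 lay within the range of the Fcgr2b-ko mice, so the groups overlapped. Relative to wild-type the change was 2.18 (SE 0.65, 95% interval 0.80 to 3.55) for C1qb and 2.27 (SE 0.69, 95% interval 0.80 to 3.75) for C1qc (adjusted p = 0.811 and 0.861 from limma). With genotype means removed, over the 16 mice C1qa and C1qb correlated at r = 0.978, C1qb and C1qc at 0.970, and C1qa and C1qc at 0.936. Their Spearman rho was 0.959 in each pair, the permutation p adjusted over the 36 pairs of members was at most 0.00108 for r and at most 0.000600 for rho, and without the 2 mice farthest from the median r was at least 0.947.

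In the double-deficient kidneys the C1q chains had lower means than in the Fcgr2b-ko kidneys, with log2 differences of -1.5 for C1qa, -1.47 for C1qb, and -1.60 for C1qc. The 2 comparisons share the Fcgr2b-ko arrays, so a high Fcgr2b-ko group enters both. None of the 9 genes was called between the double-deficient and Fcgr2b-ko mice, where limma called 0% of the tested probes (smallest adjusted p = 1.0). Of the 9, 4 (the C1q chains and C4b) were lower at an unadjusted p under 0.05, where 1.16% of the tested probes were. Of the 9, 7 were at least 2-fold lower, as were 2.71% of the tested probes, and the median log2 change was -1.47 beside 0.05 over all. With an array left out this median ran from -1.90 to -0.89. Without Fcgr2b-ko replicate 1, C3 was -0.73, C4b -0.89, C3ar1 -0.85, and C5ar1 -1.03. No double-deficient mouse exceeded 1.15 for C1qa, while Fcgr2b-ko replicates 2 and 3 were at 1.22 and 1.09, and without Fcgr2b-ko replicate 1 or 4 the change of C1qa was -1.20 or -1.05. On slide 1, with 3 Fcgr2b-ko mice and 1 double-deficient mouse, C1qa, C1qb, and C1qc differed by -1.80, -1.99, and -2.19. On slide 2, with 1 and 3 mice, they differed by -0.33, -0.10, and -0.01. From wild-type to Fcgr2b-ko the changes were 2.69, 2.49, and 2.55 on slide 1 and 1.04, 0.97, and 0.95 on slide 2, where the Fcgr2b-ko mouse was replicate 3. Without Fcgr2b-ko replicate 4 or replicate 1 the change from wild-type of C1qa was 1.81 or 1.96.

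**Figure D2:**
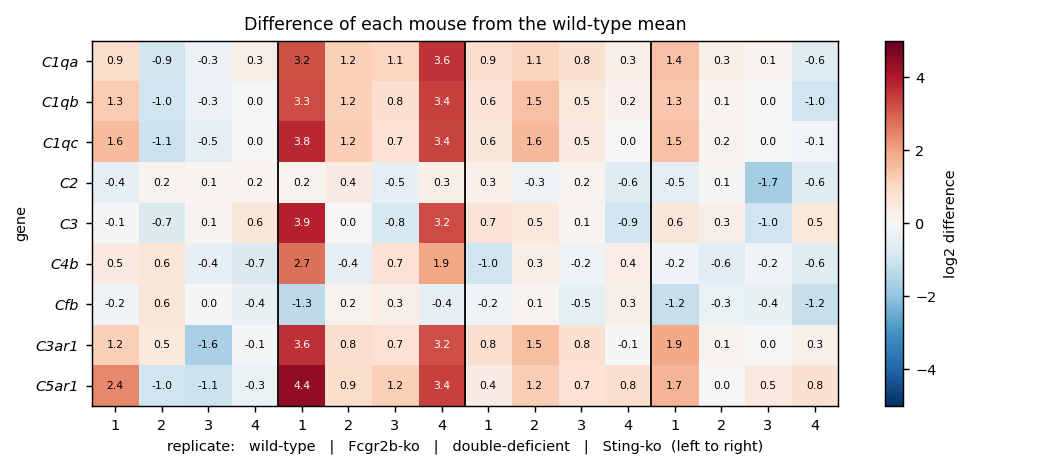
Difference of each mouse from the wild-type mean, on the log2 scale, for each gene (rows) and mouse (columns, replicates 1 to 4 of each genotype). Fcgr2b-ko replicates 1 and 4 exceed that mean by 2-fold or more in 7 of the 9 genes, replicates 2 and 3 in 3 and 2, and wild-type replicate 1 in 4.

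Counted by mouse, Fcgr2b-ko replicates 1 and 4 exceeded the mean of the wild-type mice by 2-fold or more in 7 of the 9 genes, all but C2 and Cfb, and Cfb in replicate 1 was over 2-fold below it. In Fcgr2b-ko replicates 2 and 3 there were 3 and 2 such genes, the 3 C1q chains in replicate 2 and C1qa and C5ar1 in replicate 3. In the double-deficient mice there were 5 in replicate 2 and 0 in replicates 1, 3, and 4. Sting-ko replicate 1 had 5, and the other 3 Sting-ko mice had 0. Wild-type replicate 1 itself had 4. Without wild-type replicate 1 and Fcgr2b-ko replicate 1, the 2 arrays highest in fat cell genes, the change from wild-type to Fcgr2b-ko was 2.25 for C1qa and 2.63 for C5ar1, but 0.80 for C3 and 0.93 for C4b.

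C4b and C2 encode the next substrates of the classical pathway, and they did not vary alike. C4b was at 0.69, 0.81, -0.21 and -0.55 in the wild-type mice and 2.93, -0.21, 0.92 and 2.14 in the Fcgr2b-ko mice, and at -0.82, 0.53, -0.06 and 0.56 in the double-deficient and 0.01, -0.39, -0.04 and -0.42 in the Sting-ko mice. Fcgr2b-ko replicates 1 and 4 were the highest of all 16 mice and replicate 2 lay among the wild-type mice. The change from wild-type was 1.25 (SE 0.55, 95% interval 0.08 to 2.43), and that from Fcgr2b-ko to double-deficient was -1.39 (SE 0.55, 95% interval -2.56 to -0.22) (adjusted p = 1.0 for both, unadjusted p = 0.0377 and 0.0233 from limma). The second C4b probe gave 1.17 and -1.24, the same sign as the first in all 5 contrasts. On slides 1 and 2 the change from wild-type was 0.87 and 1.29, and that to the double-deficient mice -2.43 and -0.57. Without Fcgr2b-ko replicate 1 the change from wild-type was 0.76 on the first probe.

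C2, the protease that joins C4b, was at 3.48, 4.06, 3.97 and 4.04 in the wild-type mice, 4.07, 4.31, 3.4 and 4.18 in the Fcgr2b-ko mice, 4.14, 3.63, 4.07 and 3.28 in the double-deficient mice, and 3.42, 3.95, 2.14 and 3.29 in the Sting-ko mice. The groups overlapped throughout. The change from wild-type to Fcgr2b-ko was 0.10 (SE 0.35, 95% interval -0.64 to 0.85), an interval that leaves out a 2-fold change in either direction, and the change to the double-deficient mice was -0.21 (SE 0.35, 95% interval -0.96 to 0.53). The sign of the first turned with other settings, to -0.064 with scaling by the median and -0.016 with the slide as a block, and it was 0.42 on slide 1 and -0.60 on slide 2. The Sting-ko mice had the lowest mean, 3.2 ± 0.76 (SD, n = 4) beside 3.89 ± 0.28 in the wild-type mice, a change of -0.68 (SE 0.35, 95% interval -1.43 to 0.06) (adjusted p = 0.737 from limma).

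C2 was lower in the 6 mice with Y-linked signal, with a log2 difference of -0.72 (SE 0.19, 95% interval -1.13 to -0.32) in a limma fit with genotype and Y-linked signal over all 35629 probes. Its adjusted p was 0.0403, below 0.05 but with a change under 2-fold. C2 was the only member with an adjusted p under 0.05 in this fit, against 5.22% of the tested probes. In each genotype the mouse with the lowest C2 had the signal, at 3.48 in the wild-type, 3.4 in the Fcgr2b-ko, 3.28 in the double-deficient, and 2.14 in the Sting-ko group, although wild-type replicate 2, which also had the signal, was the highest of its group. This comparison was made after the values were seen. C3 differed by -1.37 (SE 0.54, adjusted p = 0.205 from limma) and Cfb by 0.57 (SE 0.24, adjusted p = 0.242), and neither passed. The C1q chains and the receptors differed by -0.44 to 0.09, within their SE of 0.44 to 0.63, and C4b by 0.50 (SE 0.41).

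C3, the center of the cascade, had the widest spread of the 9 genes in the Fcgr2b-ko mice. It was at 2.28, 1.66, 2.45 and 2.95 in the wild-type mice and at 6.20, 2.32, 1.57 and 5.58 in the Fcgr2b-ko mice. Replicates 1 and 4 were the highest of the 16 mice, and replicates 2 and 3 lay within or below the wild-type range. It was at 3.03, 2.85, 2.44 and 1.39 in the double-deficient mice and 2.92, 2.66, 1.35 and 2.86 in the Sting-ko mice. The Fcgr2b-ko mice differed from wild-type by 1.59 (SE 0.83, 95% interval -0.18 to 3.35) and the double-deficient mice from the Fcgr2b-ko mice by -1.49 (SE 0.83, 95% interval -3.26 to 0.28) (adjusted p = 1.0 for both from limma). The second C3 probe gave 1.52 (SE 0.65, 95% interval 0.14 to 2.90, unadjusted p = 0.0326 from limma) and -1.38 (SE 0.65) for these. Neither passed adjustment. The sign was that of the first probe in 3 of the 5 contrasts. It differed in small changes, 0.11 and -0.01 from wild-type to Sting-ko and -0.02 and 0.16 from Sting-ko to double-deficient. The SD in the wild-type mice was 0.22, beside 0.53 on the first probe. On slide 1 the change from wild-type was 2.73, and on slide 2, with 1 Fcgr2b-ko mouse, it was -1.13, so the sign turned. From Fcgr2b-ko to double-deficient it was -1.67 on slide 1 and 0.66 on slide 2. Without Fcgr2b-ko replicate 1 the change from wild-type was 0.82, and with Y-linked signal as a covariate it was 1.24.

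Cfb, factor B of the alternative pathway, did not vary with C3 in the same direction. It was at 5.07, 5.88, 5.22 and 4.87 in the wild-type mice, 3.94, 5.43, 5.59 and 4.84 in the Fcgr2b-ko mice, 5.08, 5.41, 4.80 and 5.55 in the double-deficient mice, and 4.11, 4.92, 4.90 and 4.11 in the Sting-ko mice. Fcgr2b-ko replicate 1, the mouse with the highest C3, had the lowest Cfb of all 16 mice. The change from wild-type to Fcgr2b-ko was -0.31 (SE 0.36, 95% interval -1.08 to 0.46), and that to the double-deficient mice was 0.26 (SE 0.36, 95% interval -0.51 to 1.03). On slides 1 and 2 the first was -0.74 and 0.54, so the sign turned. The Sting-ko mice differed from the wild-type mice by -0.75, and the double-deficient mice from the Sting-ko mice by 0.70. The second Cfb probe gave -1.28 (SE 0.55, unadjusted p = 0.0337) and 1.29 (SE 0.55, unadjusted p = 0.0326) for these, with adjusted p = 0.737 and 0.891 from limma. Over the 16 mice, with genotype means removed, Cfb and C3 correlated at r = -0.801 and rho = -0.691 (permutation p adjusted over the 36 pairs 0.0158 and 0.0602). Without the 2 mice farthest from the median r was -0.661 (adjusted p = 0.0671), so the relation rested in part on these mice.

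The receptors were dim. C3ar1 was at -4.24, -4.91, -7.03 and -5.53 in the wild-type mice, -1.79, -4.59, -4.70 and -2.21 in the Fcgr2b-ko mice, -4.62, -3.94, -4.67 and -5.51 in the double-deficient mice, and -3.53, -5.30, -5.41 and -5.16 in the Sting-ko mice. It was well above background on 2, 3, 3, and 2 of the 4 arrays of these groups. C5ar1 was at -2.44, -5.86, -5.92 and -5.18 in the wild-type mice, -0.43, -3.96, -3.66 and -1.44 in the Fcgr2b-ko mice, -4.45, -3.60, -4.13 and -4.02 in the double-deficient mice, and -3.16, -4.82, -4.38 and -4.09 in the Sting-ko mice. It was detected over background on 1 wild-type array and on all 4 arrays of each other group. In both genes Fcgr2b-ko replicates 1 and 4 were the highest of all 16 mice and replicates 2 and 3 overlapped with the wild-type mice. The change from wild-type was 2.10 (SE 0.72, 95% interval 0.57 to 3.64) for C3ar1 and 2.48 (SE 0.80, 95% interval 0.77 to 4.18) for C5ar1 (adjusted p = 1.0 and 0.999 from limma). These sizes include wild-type signal that was not well above background, and with normexp they were 0.82 and 1.03. From Fcgr2b-ko to double-deficient they were -1.36 and -1.68 (adjusted p = 1.0 for both), and -0.74 and -1.03 with normexp. On slides 1 and 2 C3ar1 was 1.71 and 1.58 from wild-type and -1.75 and -0.01 from Fcgr2b-ko to double-deficient. C5ar1 was 2.21 and 1.88 and then -2.51 and -0.25. Without wild-type replicate 1, the wild-type mouse with the highest C5ar1 signal, the change of C5ar1 was 3.28.

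**Figure D3:**
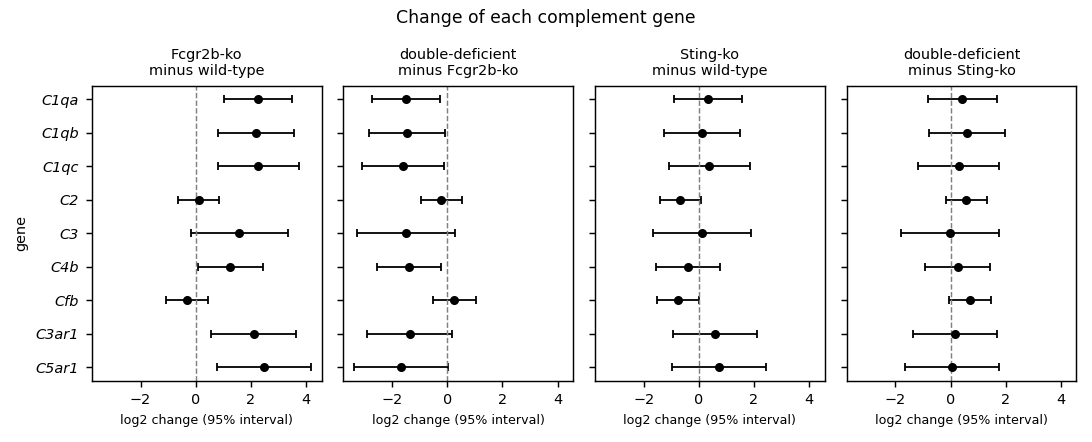
Log2 change of each of the 9 genes in 4 comparisons, with the 95% interval from limma. In the first panel 7 of the 9 points lie above 1 and the intervals of C2, C3, and Cfb include 0, and in the last 2 panels all 9 intervals include 0.

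The Sting-ko mice show the loss of STING without the Fcgr2b deletion. Between the Sting-ko and wild-type mice 0 of the 9 were called, 0 were higher and 0 lower at an unadjusted p under 0.05, against 3.71% of the tested probes, and limma called 0% of those. The changes ran from -0.75 for Cfb to 0.74 for C5ar1, with a median of 0.11. Their 95% intervals do not show that the groups were alike, since that of C5ar1 reached from -0.97 to 2.44 and that of C1qa from -0.91 to 1.57. Between the double-deficient and Sting-ko mice, again 0 of the 9 passed at an unadjusted p under 0.05, against 3.05% of the tested probes (0% called), with changes from -0.02 for C3 to 0.70 for Cfb.

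The interaction asks whether the change with STING loss differed between mice with and without the Fcgr2b deletion. It was -1.83 for C1qa, -1.58 for C1qb, -1.98 for C1qc, -1.61 for C3, -0.99 for C4b, -1.94 for C3ar1, and -2.42 for C5ar1. It was 0.47 for C2 and 1.01 for Cfb. On the second probes the interaction was 1.71 for Cfb (SE 0.78, 95% interval 0.05 to 3.36, unadjusted p = 0.0440 from limma), -1.37 for C3, and -0.54 for C4b. With normexp it was -0.91 for C3ar1 and -1.11 for C5ar1. Without Fcgr2b-ko replicate 1 it was -0.84 for C3 and -0.50 for C4b. No gene was called for it (smallest adjusted p = 0.668 from limma, 0% of the tested probes called). Of the 9, 2 (C1qa and C5ar1) were below 0 at an unadjusted p under 0.05, beside 2.74% of the tested probes. By their brighter probes 0 were above 0 at that threshold, as 3.46% of the tested probes were. Of the 9, 6 were at or beyond 2-fold below 0, as were 13.1% of the tested probes.

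Ordered by their means, the Fcgr2b-ko mice came first in 8 of the 9 genes and the wild-type mice came first in Cfb. In the C1q chains the order was Fcgr2b-ko, double-deficient, Sting-ko, wild-type. In every gene the range of each group overlapped with that of the next in the order, which does not show that their means were alike.

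**Figure D4:**
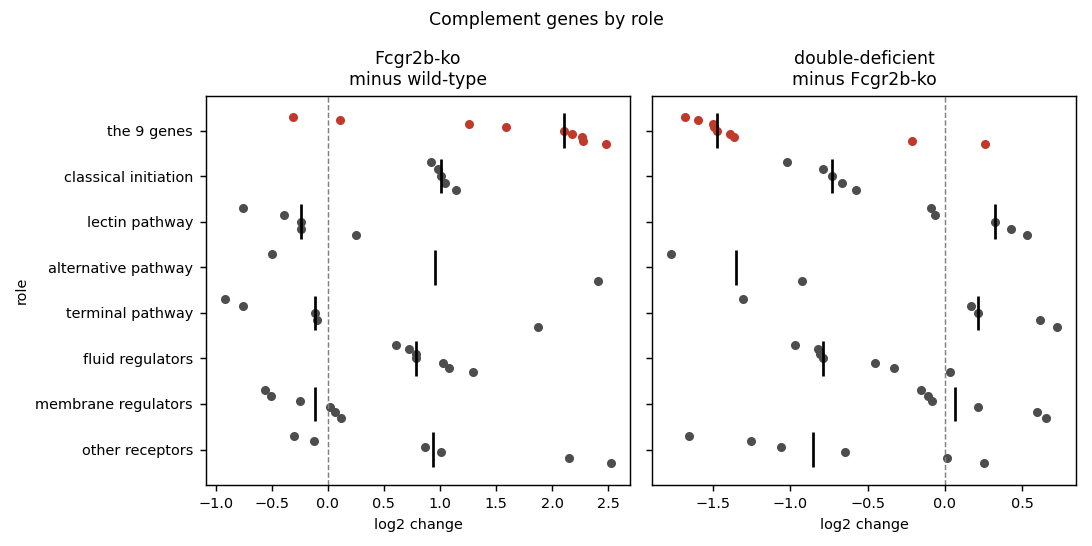
Log2 change of the 9 genes (red) and of the tested genes of 7 other lists of complement genes (gray), each point 1 gene and each vertical line the median of a list, from wild-type to Fcgr2b-ko (left) and from Fcgr2b-ko to double-deficient (right). The initiating proteases and the fluid regulators lie on one side of 0 in the left panel, and the lectin pathway, terminal pathway and membrane regulators lie on both sides.

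The rest of the cascade was read from 7 lists, with 0 genes called in any of the 5 contrasts. Of the 5 initiating genes of the classical pathway, the proteases C1ra, C1rb, C1s1, and C1s2 and the C4 paralog C4a, all 5 were above 0 between wild-type and Fcgr2b-ko, where 44.7% of the tested probes were, with a median of 1.01. C4a had the largest change, 1.15 (SE 0.67, adjusted p = 1.0).

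Of the 9 genes of the lectin pathway, 5 were tested, with a median of -0.24. Colec12, a scavenger receptor collectin, had the largest increase at 0.25 and Mbl1, a mannose-binding lectin that activates the cascade on sugars, the largest decrease at -0.76 (SE 0.54). Mbl1 was -1.31 from wild-type in the Sting-ko mice (SE 0.54, adjusted p = 0.737 from limma). Both other genes of the alternative pathway were tested. Cfp, properdin, which stabilizes the C3-cleaving enzyme and is stored in leukocytes, was at -0.00388, -2.72, -2.21 and -1.77 in the wild-type mice and 2.91, -1.03, -0.90 and 1.95 in the Fcgr2b-ko mice, a change of 2.41 (SE 0.81, adjusted p = 1.0). Its Fcgr2b-ko replicates 2 and 3 lay within the wild-type range. Cfd, factor D, which cleaves factor B and is made largely by fat cells, was at 4.09, 1.38, 0.29 and 0.39 and 5.55, -0.65, -1.02 and 0.28, a change of -0.50 (SE 1.43). Its highest levels were in wild-type replicate 1 and Fcgr2b-ko replicate 1, the mice highest in fat cell genes.

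Of the 7 genes of the terminal pathway, which forms the membrane attack complex, 5 were tested, with a median of -0.11. C6 had the largest increase, 1.87 (SE 0.77), but only 1 wild-type and 2 Fcgr2b-ko arrays had it well above background. C8g had the largest decrease, -0.92 (SE 0.64). The fluid regulators, which restrain the cascade in plasma, were 8 genes with 7 tested, and all 7 were above 0, with a median of 0.79. Cfi, factor I, which inactivates C3b and C4b, had the largest increase at 1.30 (SE 0.68). Clu, 1 of the 7, also stands in the list of tubular injury genes. The 6 membrane regulators, which protect cells from complement, had 3 above and 3 below 0 and a median of -0.12, from -0.56 for Cd55b to 0.12 for Cd59b.

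Of 7 other receptor genes, 6 were tested. Itgax, the alpha chain of complement receptor 4 and a marker of dendritic cells and some macrophages, was at 0.13, -2.63, -2.75 and -1.82 in the wild-type mice and 2.38, -1.17, -0.08 and 1.90 in the Fcgr2b-ko mice, a change of 2.52 (SE 0.76, adjusted p = 0.836 from limma). Itgam, the alpha chain of complement receptor 3, had the largest decrease, -0.31 (SE 0.58). Itgb2, the beta chain that both receptors share, was at 2.15 (SE 0.62, adjusted p = 0.786), and was named after its values were seen. At an unadjusted p under 0.05, 2 of the 6 receptors, 1 of the 2 alternative pathway genes, and 1 of the 5 terminal genes were higher, beside 2.61% of the tested probes, and 0 of the tested genes of the other 4 lists. Between Fcgr2b-ko and double-deficient mice the medians were -0.73 for the initiating genes, -0.79 for the fluid regulators, -0.85 for the receptors, -1.35 for the 2 alternative pathway genes, 0.32 for the lectin pathway, 0.22 for the terminal pathway, and 0.06 for the membrane regulators.

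Markers of cell types, tubular injury, and interferon were read beside these results. The 15 mononuclear phagocyte genes, all of them tested, averaged 1.60, -0.37, -0.32 and 0.18 in the wild-type mice and 3.44, 0.98, 0.82 and 2.93 in the Fcgr2b-ko mice, and 0.64, 1.77, 0.72 and 0.24 in the double-deficient and 1.60, 0.42, 0.31 and 0.23 in the Sting-ko mice. Of the 15, 13 were above 0 between wild-type and Fcgr2b-ko, where 44.7% of the tested probes were, with a median of 2.13. At an unadjusted p under 0.05 from limma, 11 were higher, where 2.61% of the tested probes were. Of its defining genes, the macrophage marker Adgre1 was 2.57 (SE 0.79), the growth factor receptor Csf1r 0.83 (SE 0.26), and Cd68 2.32 (SE 0.49) above wild-type, and 0 of the 15 were called. The 10 tubular injury genes averaged -0.30, -0.48, 0.04 and 0.14 in the wild-type mice and 2.53, 0.32, -0.27 and 2.19 in the Fcgr2b-ko mice, where replicates 1 and 4 stood apart from all other mice. The 20 interferon-inducible genes averaged 0.94, -1.31, -0.52 and -0.08 and 2.30, -0.26, -0.71 and 1.5 in the same groups. The hepatocyte list, of cells that make most plasma complement, averaged -0.20 to 0.87 over the 16 arrays, with 2 of its 7 tested genes above 0 between wild-type and Fcgr2b-ko. The neutrophil list averaged -2.30 in the wild-type and -1.35 in the Fcgr2b-ko mice, with all 7 tested genes of 10 above 0. The T cell list averaged -1.86 and -1.08, with 8 of 9 above 0. By mouse, the Fcgr2b-ko group was at -0.10, -2.59, -1.71 and -0.98 for the neutrophil list and at 0.61, -2.19, -2.41 and -0.31 for the T cell list. Replicate 2 in the first list and replicates 2 and 3 in the second lay below the wild-type mean. The medians of the change were 0.33 for 7 tested dendritic cell genes and 0.15 for 8 tested B and plasma cell genes. For the 7 tested hepatocyte genes the median was -0.04, as it was over all tested probes. The part of these cells in the change of the complement genes was not tested.

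**Figure D5:**
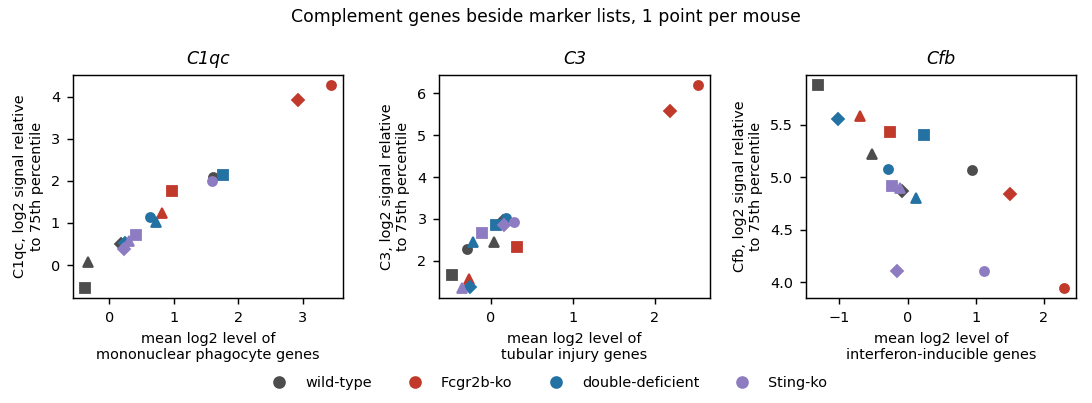
C1qc beside the mean of 15 mononuclear phagocyte genes (left), C3 beside the mean of 10 tubular injury genes (middle), and Cfb beside the mean of 20 interferon-inducible genes (right), all as log2 signal relative to the 75th percentile, 1 point per mouse. Marker shapes are replicate numbers as in the plot of levels. C1qc lies along a line through all genotypes, the 2 highest points of C3 are Fcgr2b-ko replicates 1 and 4, and Cfb is lower in mice with a higher mean of interferon-inducible genes.

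The levels within genotypes were set beside 3 of these lists. There were 27 relations, 9 genes with 3 lists. Each used all 16 mice as deviations from the mean of their genotype, and mice were permuted within genotypes 100000 times. C1qc correlated with the mononuclear phagocyte genes at r = 0.989 and rho = 0.979 (permutation p adjusted over the 27 relations 0.000135 and 0.000135, 1e-05 and 1e-05 before adjustment). Without the 2 mice farthest from the median r was 0.981, and over the 12 mice of the other 3 genotypes it was 0.984. Within slides 1 and 2, with 7 mice each after leaving out the genotype with 1 mouse there, it was 0.992 and 0.997. C1qb and C1qa followed the same list at r = 0.949 and 0.909 (rho 0.918 and 0.941, adjusted permutation p = 0.000180 and 0.00152). Within the slides C1qb gave 0.979 and 0.825 and C1qa 0.961 and 0.765. The interferon-inducible genes gave 0.967, 0.923, and 0.914 for C1qc, C1qb, and C1qa (adjusted permutation p = 0.000472, 0.00152, and 0.00152).

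The receptors also followed the mononuclear phagocyte genes, C3ar1 at r = 0.898 (rho 0.844, adjusted permutation p = 0.00192) and C5ar1 at 0.927 (rho 0.835, adjusted permutation p = 0.00152). Over the 12 mice r was 0.802 and 0.868, and within slides 1 and 2 it was 0.909 and 0.866 for C3ar1 and 0.993 and 0.693 for C5ar1. The rho over the 12 mice, 0.685 and 0.629, did not pass adjustment (adjusted permutation p = 0.105 and 0.114). Without the 2 of these mice farthest from the median r was 0.543 and 0.552 (permutation p = 0.171 and 0.136 before adjustment). With the interferon-inducible genes r was 0.817 for C3ar1 and 0.892 for C5ar1 over the 16 mice (adjusted permutation p = 0.0180 and 0.00232).

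C3 followed the tubular injury genes. Because Fcgr2b-ko replicates 1 and 4 stood apart in both measures, the relation is given over the 12 mice of the other genotypes, where r was 0.865 and rho 0.930 (adjusted permutation p = 0.000990 and 0.00162). Without the 2 of these mice farthest from the median r was 0.748 (permutation p = 0.0175 before adjustment). Within slides 1 and 2, Fcgr2b-ko mice included where there were several, r was 0.992 and 0.896. Over the same 12 mice C3 and the mononuclear phagocyte genes gave r = 0.375 (adjusted permutation p = 0.415), and the tubular injury genes gave 0.320 for C1qc. Whether these correlations differ from each other was not tested.

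Cfb ran opposite to the interferon-inducible genes, at r = -0.814 and rho = -0.791 over the 16 mice (adjusted permutation p = 0.00734 and 0.00855). Without the 2 farthest mice r was -0.745, and over the 12 mice of the other genotypes it was -0.647 and did not pass (adjusted permutation p = 0.117). Within slides 1 and 2 it was -0.948 and -0.443. Cfb ran opposite to the other 2 lists as well. With the tubular injury genes r was -0.770 over the 16 mice (adjusted permutation p = 0.0111). With the mononuclear phagocyte genes r was -0.651 and rho -0.747 (adjusted permutation p = 0.0588 and 0.0141). Over the 12 mice r was -0.670 and -0.348, and neither passed (adjusted permutation p = 0.116 and 0.465). C2 passed with none of the 3 lists over the 16 mice, with r between 0.0595 and 0.331. Its values within slides 1 and 2 were unlike, -0.836 and 0.104 with the mononuclear phagocyte genes, -0.871 and 0.408 with the interferon-inducible genes, and -0.436 and 0.684 with the tubular injury genes. C4b gave r = 0.668 with the mononuclear phagocyte genes, which did not pass (adjusted permutation p = 0.0956). With the interferon-inducible and tubular injury genes r was 0.550 and 0.557, and neither passed (adjusted permutation p = 0.196 and 0.354). With the tubular injury genes it was -0.616 over the 12 mice (adjusted permutation p = 0.124), and 0.988 and -0.252 within slides 1 and 2.

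The genes whose level was most like that of each member over the 16 arrays were taken from 16382 genes, by Pearson r without removing genotype means, as a description. For C1qa they included C1qb (r = 0.986) and Emp3 (0.981), for C1qb Clec4a3 (r = 0.986), C1qa (0.986) and Fcer1g (0.986), and for C1qc Cd300c2 (r = 0.992), Fcer1g (0.991) and Adgre1 (0.986). Fcer1g, the gamma chain of Fc receptors, and Adgre1 are also in the list of mononuclear phagocyte genes. For C3ar1 they included Fcgr1 (r = 0.942) and Batf (0.941), where Fcgr1 encodes an activating Fc receptor, and for C5ar1 they were Pirb (r = 0.975), Lcp2 (0.973) and Itgax (0.973). For C3 they were Ankrd1 (r = 0.944), Pla2g15 (0.939) and Batf3 (0.936), with the stretch and injury gene Ankrd1 first. For C4b they were Lilra6 (r = 0.940), Havcr1 (0.893) and Plekho2 (0.884), where Havcr1 encodes the tubular injury marker KIM-1. With genotype means removed, C4b did not pass with the list of tubular injury genes that holds Havcr1. For Cfb they were Cradd (r = 0.957), Ethe1 (0.954) and Bcap31 (0.952), and for C2 Soat2 (r = 0.948), Tmem145 (0.946) and Tbxas1 (0.925). All genes of an array share its signal and its mouse.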

How the data were processed

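Kidney RNA of 16 mice was labelled with Cy3 and hybridized to one-color Agilent arrays (Feature Extraction 11.0, designed on mm9). The authors deposited intensity values per spot, background subtracted and detrended within each array, and a table of log2 values whose scaling is not given in the sources used here. Each table column was closest to its own array (r at least 0.999, column medians 4.93 to 5.54).

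Signals were log2 intensities less the 75th percentile of the array (383.7 to 935.0 before scaling), without control and outlier spots. No spot of the arrays was saturated. Probes were named through RefSeq (GRCm38.p6, 32994 of 56605). Of all probes, 35629 were well above background on at least 4 arrays and entered limma 3.58.1 (R 4.3.3), which fitted 1 mean for each genotype to all arrays. A call needed a 2-fold change and p below 0.05 after Benjamini-Hochberg adjustment. The fit was tested on simulated data, where log2 changes of 1, 2, and 3 were called in 0%, 58.5%, and 86.5% of the changed probes. The changed probes were drawn at random and simulated with equal spread in all genotypes, so these rates are not those of the C1q chains. A log2 change of 2 was often missed there, and a count of 0 called does not show that nothing differed. Python 3.11.15 with scipy 1.17.1 gave correlations. P-values measure only the spread between these mice. The fit used 1 spread per gene for all genotypes, although the SD of C3 was 2.31 in Fcgr2b-ko and 0.53 in wild-type mice. An SE can thus be too small for contrasts with the more variable group and too large for the others. With only the groups compared, the adjusted p of C1qa from wild-type to Fcgr2b-ko was 0.99998 from limma, beside 0.577.

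Samples were grouped by their labels. The 9 genes and all lists were chosen with earlier results of these data known. Beside the 9 genes, the text names the largest increase and decrease of each complement list from wild-type to Fcgr2b-ko, the genes among the 3 most like each member (some are not reported here), and the first 3 genes of a marker list where values are given.

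Alternatives were normexp on the median spot signal, quantile and median scaling, the authors' table, 2 filters on dim probes, only the groups compared, the Mann-Whitney test of the methods, other eBayes and fold settings, the median of a gene's probes, blocks (slide, replicate number, animal label), and each array left out. A fit without 2 arrays, Y-linked signal as a covariate, and relations over 12 mice were chosen after seeing the data.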

Additional observations from a re-analysis of the deposited data

Results flagged for a closer look

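Within groups of 4 mice, 3 members had a sample apart from the rest of its group. The measure was the gap to its nearest neighbor as a share of the range of the group. This share was set against Dixon's limit for 4 values, which chance passes in about 1 group in 20. All 9 genes were looked at in every genotype, so some such samples are to be expected by chance. No share over all probes stands beside this count, which is a description. C2 in the wild-type mice had a share of 0.842, with replicate 1 at 3.48 below the other 3 mice. C3 in the Sting-ko mice had a share of 0.839, with replicate 3 at 1.35 below 2.66 to 2.92. On the second C3 probe these mice were at 1.86, 1.61, 0.98 and 1.73, and replicate 3 did not reach the limit. C3ar1 in the Sting-ko mice had a share of 0.866, with replicate 1 at -3.53 above the other 3. Wild-type replicate 1 and Sting-ko replicate 3 are among the 6 mice with Y-linked signal, and Sting-ko replicate 1 is not.

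For C3ar1 and C5ar1, every double-deficient mouse lay below the Fcgr2b-ko mean while every Sting-ko mouse lay above the wild-type mean, some only just. Sting-ko replicate 3 was 0.013 above it for C3ar1, and Sting-ko replicate 2 was 0.028 above it for C5ar1. The wild-type mean of C3ar1 includes replicate 3 at -7.03. Fcgr2b-ko replicates 2 and 3 also lay below the Fcgr2b-ko mean in both genes. The difference between the changes with STING loss, the interaction, was -1.94 for C3ar1 (SE 1.02) and -2.42 for C5ar1 (SE 1.13), and neither passed (adjusted p = 0.668 for both from limma). C3ar1 and C5ar1 were well above background on 2 and 1 of the 4 wild-type arrays, and with normexp the values were -0.91 and -1.11. With Y-linked signal as a covariate they were -1.89 and -2.46.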

How the results depend on the processing

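The call of 0 members held in every contrast and alternative run except the unadjusted Mann-Whitney test, which gave 1 (C1qa) from wild-type to Fcgr2b-ko. The Mann-Whitney tests and the fit of only the groups compared were not run for the interaction. The receptors C3ar1 and C5ar1 gave no value where all 16 arrays had to be above background. Over all probes the calls of that comparison were less stable, with 16 in the reported fit, 7 in the authors' table, 0 with only the groups compared, 0 with probes above background on all 16 arrays, 0 with the animal label as a random block, 143 by the unadjusted Mann-Whitney test, and 0 to 39 with each array left out, where 0 came without wild-type replicate 2, 3, or 4 or Fcgr2b-ko replicate 4, and 39 without Fcgr2b-ko replicate 2. Scaling by the median took the median of all probes in it from -0.04 to -0.21, and the change of C1qa to 2.09.

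Signs turned for small changes, and the cause was not tested. From wild-type to Fcgr2b-ko, C2 was -0.064 with scaling by the median, -0.016 with the slide as a block, -0.059 without the 2 arrays highest in fat cell genes, -0.077 with Y-linked signal as a covariate, and -0.033 to 0.30 with an array left out. Cfb was -0.52 to 0.026 with an array left out, above 0 only without Fcgr2b-ko replicate 1. From Fcgr2b-ko to double-deficient, C2 was 0.028 with the slide as a block, and Cfb was -0.075 without the 2 arrays highest in fat cell genes and -0.075 to 0.47 with an array left out. From wild-type to Sting-ko, scaling by the median gave -0.149 for C1qb and -0.145 for C3, Y-linked signal as a covariate gave -0.229 for C3, and leaving out an array gave -0.045 to 0.64 for C1qa, -0.30 to 0.54 for C1qb, and -0.11 to 0.48 for C3. From Sting-ko to double-deficient, C3 was 0.118 with scaling by the median, 0.068 with the median of the probes, 0.187 with the slide as a block, 0.045 with the animal label as a random block, and 0.322 with Y-linked signal as a covariate. Normexp gave -0.098 for C3ar1 and -0.085 for C5ar1 there, and leaving out an array gave -0.39 to 0.33 for C3, -0.021 to 0.65 for C1qc, -0.082 to 0.61 for C3ar1, and -0.17 to 0.38 for C5ar1.

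Over the 12 mice without the Fcgr2b-ko group, r turned to -0.091 for C2 with the mononuclear phagocyte genes, -0.026 for C2 with the interferon-inducible genes, and -0.616 for C4b with the tubular injury genes, and no longer passed for C3 with the interferon-inducible genes (0.502), for Cfb with the interferon-inducible (-0.647) and tubular injury genes (-0.670), and for C3ar1 with the interferon-inducible genes (0.642). Without the 2 farthest mice it no longer passed for C3ar1 with the interferon-inducible genes (0.709) and came to pass for C3 with the mononuclear phagocyte genes (0.799).

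The labels do not say that replicate numbers pair the mice, and correlations of same-numbered mice ran from -0.60 to 0.69. Between wild-type and Fcgr2b-ko mice they averaged 0.427, beside -0.129 for other numbers, and 3 of 4 were over 0.1. Between Fcgr2b-ko and double-deficient mice they averaged -0.325. With the replicate number as a block the change of C1qa from wild-type to Fcgr2b-ko was 2.26 (adjusted p = 0.333 from limma), 15 probes were called, and the block changed no call of a member. In arrays the number of mice and the dimness of the receptor probes limit what can be seen.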
